A study of Mus musculus with 6 samples.

Results

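The epidermal growth factor (EGF) family was followed in MLO-Y4 cells, a mouse line with features of osteocytes, at the level of RNA. The genes were 10 of the 39174 in the deposited table, taken by symbol: the ligand genes Ereg, Areg, Hbegf, Btc, Tgfa and Nrg1, the receptor genes Egfr, Erbb2 and Erbb3, and the receptor inhibitor gene Errfi1. All 10 were found, each in 1 row. The set was chosen by the flow-against-control values of Ereg, a ligand gene higher in flow cells, so the difference between these groups is given below for all 10 as a description, and no p-value is given for it. The other ligands and the receptor of the family (Egf, Epgn, Nrg2, Nrg3, Nrg4 and Erbb4) are given beside them.

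The 3 flow cultures spent 2 h in parallel-plate chambers under oscillating flow with a shear stress of 10 dyn per square centimetre, and were lysed after 2 h more in fresh medium. The 3 non-flow control cultures were sham-treated in parallel and had the same 2 h of incubation. All 6 cultures were of the same line, grown in serum-containing medium on collagen-coated glass, seeded 48 h before flow and about 60% confluent at that time, and replicates were collected on separate days. MLO-Y4 was derived from long bone of a mouse carrying a viral large T antigen under the osteocalcin promoter, and it is a dividing line, unlike osteocytes in bone. The comparison asks which transcripts differ after flow. Values are FPKM (fragments scaled to transcript length and to the size of the library), a level per length, so genes can be compared with each other.

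Depth, read from the steps of the lowest FPKM values, was 5.76 to 19.23 megareads in flow libraries and 17.91 to 19.01 megareads in controls. Flow libraries 2 and 1 were the shallowest, at 5.76 and 11.02 megareads. Across protein-coding genes the flow difference followed GC content. In 5 equal groups of 2092 genes, the group with the lowest GC content had a median log2 fold change of 0.20, and that with the highest had -0.21. GC content and the values with this trend removed are therefore given beside many of the results. Of 15 markers of the osteoblast and osteocyte lineage, 9 averaged at least 1 FPKM, among them Gja1, Pdpn and Phex. Sost, Mepe and Fgf23, which define mature osteocytes, were listed at 0 in all 6 libraries, and Dmp1 reached at most 0.0354 FPKM. Summed levels of the lineage markers were 7584 to 9424 FPKM in flow and 8072 to 8156 FPKM in controls, of which Spp1 (osteopontin) alone made up 6445 to 8360 FPKM in flow and 6868 to 7054 FPKM in controls. Col1a2, a collagen gene, had 96.2, 92.0 and 97.4 FPKM in flow, below the 123, 111 and 109 FPKM of controls. All flow values lay below all controls in 8.0% of all genes that averaged at least 1 FPKM. Col1a1, another collagen gene of the list, had 132, 105 and 159 FPKM in flow and 169, 140 and 151 FPKM in controls, with overlap. The part of Col1a2 in the results below was not tested. Markers of leukocytes summed to 6.96 to 9.40 FPKM in flow and 7.87 to 8.39 FPKM in controls. Of these 7 markers 6 were listed, with Cd14 alone above 1 FPKM. Endothelial markers summed to at most 0.152 FPKM and epithelial markers to at most 0.0941 FPKM in any library. Adipocyte markers summed to 11.2 to 13.8 FPKM in flow and 10.4 to 13.3 FPKM in controls, with Cebpa and Fabp4 of 4 above 1 FPKM.

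EGF ligands are made as membrane-anchored precursors and act on the same cell or its neighbours once metalloproteases of the ADAM family cut them free. They bind receptor tyrosine kinases of the ErbB family, which pair up and pass the signal to the RAS-ERK and PI3K-AKT pathways. Epiregulin, amphiregulin, heparin-binding EGF and betacellulin bind EGFR, and each neuregulin binds ErbB3, ErbB4 or both. ErbB2 has no known ligand and serves as the partner of the others. In bone, amphiregulin and EGFR signalling are known for their part in osteoblast precursor growth and in the response to parathyroid hormone.

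The ligands share a compact EGF-like module held by 6 cysteines, which is the part that meets the receptor. Its coding stretch is shown for Ereg and Areg and for 5 relatives, so that the likeness of the 2 neighbours can be seen, from the cysteine that opens the module to the one that closes it, 5′ to 3′, with the cysteine codons in capitals. The sequences were read from the GENCODE M21 transcripts.
Ereg: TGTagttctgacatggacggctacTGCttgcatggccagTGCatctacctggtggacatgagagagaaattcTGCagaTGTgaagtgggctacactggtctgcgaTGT
Areg: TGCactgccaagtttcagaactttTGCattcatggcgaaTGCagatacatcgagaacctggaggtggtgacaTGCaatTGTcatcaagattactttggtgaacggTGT
Btc: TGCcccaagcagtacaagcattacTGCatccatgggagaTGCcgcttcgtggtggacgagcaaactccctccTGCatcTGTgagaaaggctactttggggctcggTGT
Epgn: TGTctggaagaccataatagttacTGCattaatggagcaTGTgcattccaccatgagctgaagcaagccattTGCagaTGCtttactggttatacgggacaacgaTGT
Tgfa: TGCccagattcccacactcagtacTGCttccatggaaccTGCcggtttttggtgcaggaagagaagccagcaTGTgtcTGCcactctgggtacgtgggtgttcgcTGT
Nrg1: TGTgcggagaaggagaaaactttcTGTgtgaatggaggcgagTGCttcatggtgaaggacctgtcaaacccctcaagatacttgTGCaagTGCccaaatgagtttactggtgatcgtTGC
Nrg4: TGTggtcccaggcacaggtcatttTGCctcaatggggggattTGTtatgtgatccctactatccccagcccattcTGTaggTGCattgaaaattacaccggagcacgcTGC
Ereg, Areg, Btc, Epgn and Tgfa, and Hbegf, whose sequence is not shown, have the same spacing of cysteines over 108 bases, while the Nrg1 module is 120 and the Nrg4 module 111 bases long. Apart from the spacing the genes have diverged. Ereg and Areg were identical at 53.7% of the 108 bases, with no identical run longer than 6 bases. Betacellulin and TGF-alpha were the closest of the 5 shown with that spacing, at 62.0%. No stretch of 50 bases, the number of sequencing cycles, occurred both in Ereg or Areg and in a transcript of another gene on the same strand. For Ereg, 2.26% of its 50-base stretches lay in Gm19610, which runs on the opposite strand across 3.4% of its exon bases. Whether the counting used strand is not given in the sources used here, so reads of those bases cannot be told apart. Areg, Hbegf, Btc, Erbb2, Erbb3 and Errfi1 shared no 50-base stretch with another gene.

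Epiregulin was the most abundant ligand transcript and was higher in every flow library than in every control. Ereg (ENSMUSG00000029377, chromosome 5 at 91074616 to 91093649 in the file, build mm10) had 76.7, 99.5 and 97.1 FPKM in flow libraries 1 to 3, against 33.3, 37.9 and 47.6 FPKM in non-flow controls 1 to 3. The groups did not overlap: the lowest flow value was 76.7 FPKM and the highest control 47.6 FPKM. The means were 91.1 ± 12.5 FPKM in flow and 39.6 ± 7.27 FPKM in controls (SD, n = 3 each), a ratio of 2.30. On the scale of log2(FPKM + 1) the fold change was 1.19 with SE 0.17. The levels correspond to about 2252 to 7333 reads per library, so counting error is small beside the spread between cultures. Flow library 1 was the lowest of its group and control 3 the highest of its own, and without either of these the fold change was 1.31 and 1.32. Without control 1, flow library 2, flow library 3 or control 2 it was smaller, at 1.07, 1.12, 1.14 and 1.16.

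The position of Ereg among all genes was near the top without being extreme. Of the 11957 genes that averaged 1 FPKM or more over the 6 libraries, 163 had a larger log2 fold change toward flow. In 851 of the 11957 genes (7.12%) all flow values lay above all control values, and among these 851, 13 had a larger fold change than Ereg. Since Ereg was chosen for its flow level, these ranks describe that choice again, and nothing further is read from them. A lower mean than that of Ereg was seen for 88.8% of the 11957 genes in flow and for 74.6% in controls. The Ereg transcript has a GC content of 39.2%, in the lowest of those 5 groups. With the GC trend removed among protein-coding genes, its log2 fold change was 0.91 with SE 0.21. In the other deposited table, made at 0.69 to 4.72 megareads per library, Ereg had 70.3, 85.7 and 91.0 FPKM in the flow columns and 23.7, 31.95 and 45.5 FPKM in the control columns. Of its 6 columns 4 bear the same titles as in the main table, so it is not used as further replicates.

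**Figure D1:**
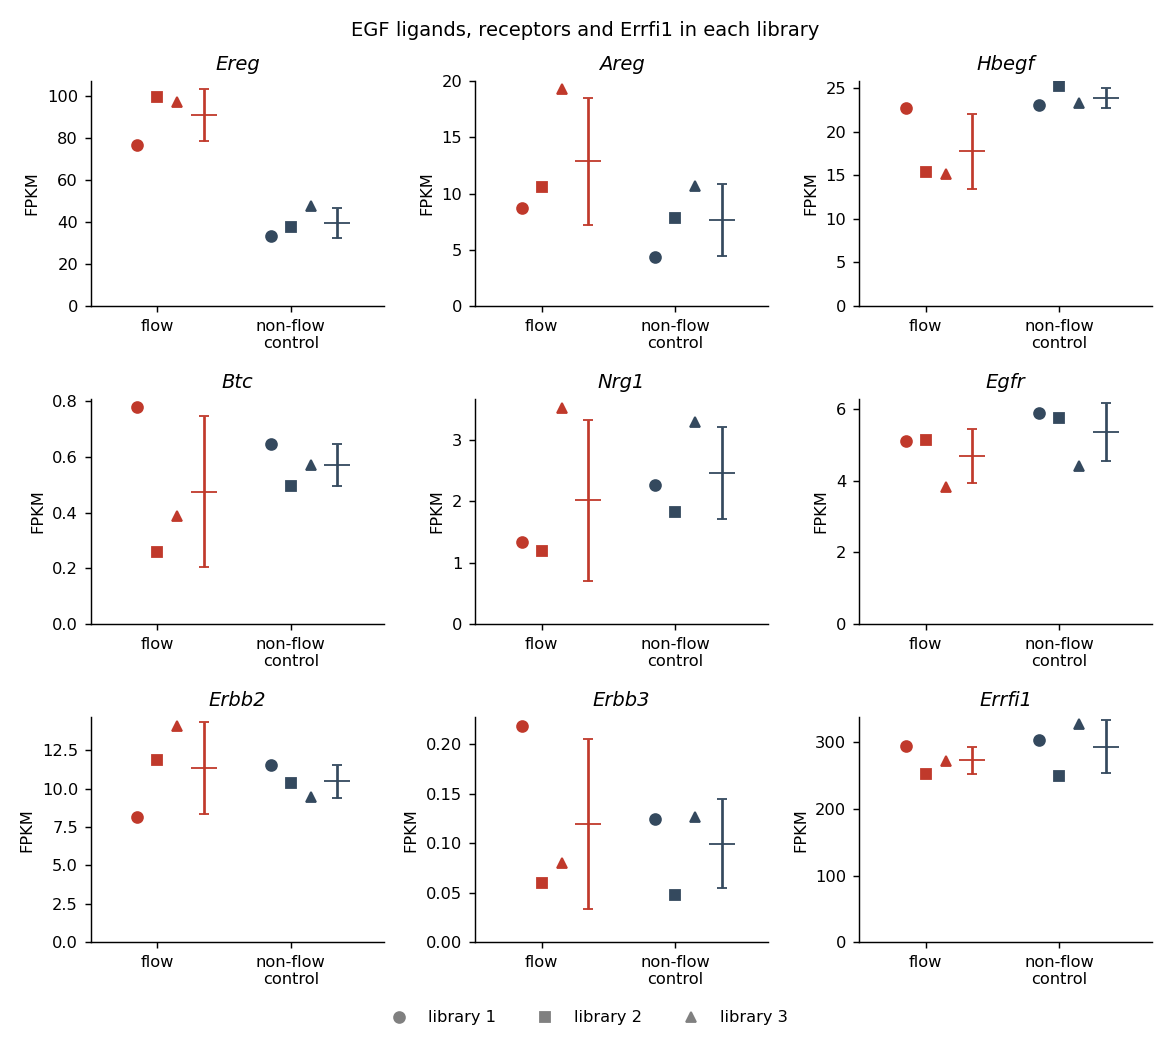
Level (FPKM, axis from 0) of 9 genes in the 3 flow libraries (left, red) and the 3 non-flow controls (right, grey), with 1 symbol per library and the mean ± SD beside them. Ereg stands apart in flow (76.7 to 99.5 against 33.3 to 47.6 FPKM), Hbegf lies just below its controls, and the other 7 overlap; Tgfa, listed at 0 in all 6 libraries, is not drawn.

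Amphiregulin, which also acts through EGFR and is the gene next to Ereg, had the same direction, with groups that overlapped. Areg (ENSMUSG00000029378, chromosome 5 at 91139614 to 91148432) had 8.72, 10.6 and 19.3 FPKM in flow libraries 1 to 3, against 4.36, 7.86 and 10.7 FPKM in controls 1 to 3. The groups overlapped, because control 3 lay above flow libraries 1 and 2. The means were 12.9 ± 5.62 FPKM in flow and 7.64 ± 3.17 FPKM in controls (SD, n = 3 each), with a log2 fold change of 0.68 and SE 0.38. That fold change was 0.37 without flow library 3 and also 0.37 without control 1, and 1.30 with flow library 3 alone against the controls. Library 3 was the highest of its group in both conditions. Between libraries with neighbouring title numbers (4 and 3, 12 and 11, 20 and 19) the flow level was 2.00, 1.35 and 1.802 times the control level. With these taken as pairs the SE of the log2 fold change was 0.14, but no label says that they share a day. For Ereg the same ratios were 2.30, 2.63 and 2.04. In the other deposited table Areg averaged 12.02 FPKM in flow and 5.34 FPKM in controls. The transcript is short, and its values rest on about 62 to 376 reads per library. Its GC content is 48.4%, and the fold change with the GC trend removed was 0.64.

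Heparin-binding EGF, the ligand known for its rapid release from many stressed cells, had the opposite direction. Hbegf (ENSMUSG00000024486, chromosome 18 at 36504928 to 36515805) had 22.7, 15.3 and 15.1 FPKM in flow libraries 1 to 3, against 23.0, 25.2 and 23.3 FPKM in controls 1 to 3. All flow values lay below all controls, as in 8.0% of the 11957 genes, but flow library 1 lay just under control 1. The means were 17.7 ± 4.31 FPKM in flow and 23.8 ± 1.18 FPKM in controls (SD, n = 3 each), a log2 fold change of -0.43 with SE 0.17. It was -0.61 without flow library 1 and -0.40 with the GC trend removed.

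The remaining ligands were low. Nrg1, the founding neuregulin, had 1.33, 1.19 and 3.52 FPKM in flow libraries and 2.26, 1.83 and 3.29 FPKM in controls. The groups overlapped, and library 3 was again the highest of each (log2 fold change -0.26, SE 0.34). With flow library 3 alone against the controls the sign turned, to 0.41, and without flow library 3 it was -0.59. The file places Nrg1 at 31818027 to 31918203 on chromosome 8, which is only part of the gene as annotated in GENCODE M21. Nrg4 had 2.29, 3.37 and 2.19 FPKM in flow and 1.69, 2.22 and 2.24 FPKM in controls, again with overlap (log2 fold change 0.24, SE 0.20). Btc, betacellulin, had 0.779, 0.259 and 0.388 FPKM in flow and 0.646, 0.495 and 0.569 FPKM in controls, which corresponds to about 6 to 44 reads per library.

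A further 2 ligands were at the limit of detection. Egf itself had 0.0397, 0.114 and 0.205 FPKM in flow and 0.147, 0.0727 and 0.127 FPKM in controls, about 2 to 18 reads. Epgn, the gene of epigen, which lies on the other side of Ereg from Areg, had at most 0.167 FPKM in flow and 0.106 FPKM in controls, or 5 reads or fewer. Tgfa, Nrg2 and Nrg3 were listed at 0 in all 6 libraries. At these depths 3 reads on the longest transcript of Tgfa equal 0.0361 to 0.120 FPKM, which is the level a count of 0 allows. For Nrg2 and Nrg3 the corresponding levels were at most 0.182 and 0.137 FPKM. A listed 0 may also stand for an estimate that failed, and 2 of the 6831 protein-coding genes averaging 10 FPKM or more were listed at 0 in at least 1 library.

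The sum over the 11 ligand genes was 113, 130 and 138 FPKM in flow libraries 1 to 3 and 65.5, 75.6 and 87.8 FPKM in controls 1 to 3. Every flow library had a larger sum than every control. Without Ereg the sums were 36.0, 30.9 and 40.9 FPKM in flow and 32.2, 37.8 and 40.2 FPKM in controls, and the groups overlapped. Ereg made up 68.1% to 76.3% of the ligand sum in flow and 50.1% to 54.2% in controls. Hbegf made up 10.97% to 20.13% in flow and 26.6% to 35.2% in controls. The share of Areg was 9.95% ± 3.48 in flow and 9.75% ± 2.82 in controls (SD, n = 3 each). Ereg exceeded Hbegf by a factor of 3.38 to 6.49 in flow and of 1.45 to 2.04 in controls. Since Ereg was chosen for its flow level, these shares describe that choice again in another form.

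**Figure D2:**
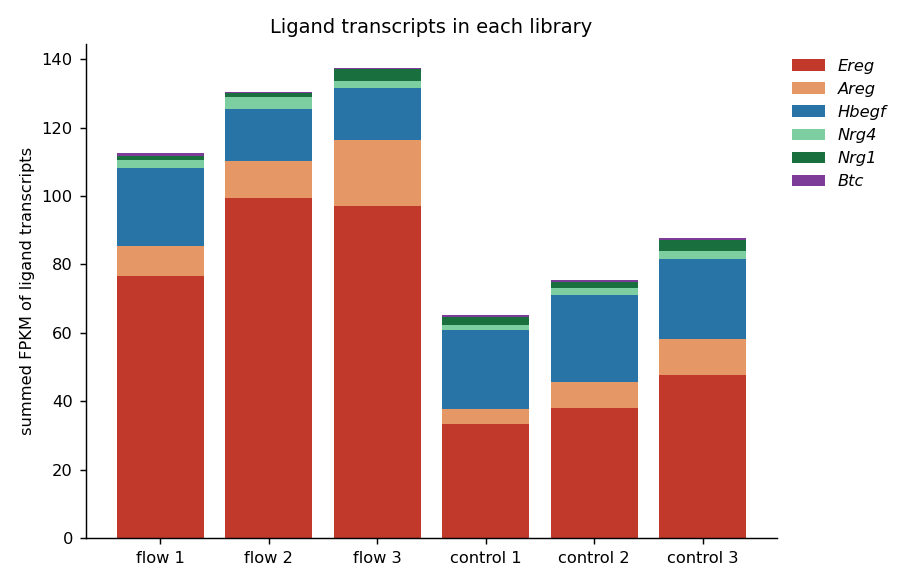
Stacked FPKM of the 6 ligand genes with the highest levels in each of the 3 flow libraries (left) and the 3 controls (right); the other 5 ligand genes, each at most 0.205 FPKM, are not visible at this scale. The red Ereg block is taller in each flow bar, while the blocks above it reach a similar total height in both groups.

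The receptors showed no comparable difference. Egfr, the receptor for epiregulin and amphiregulin, had 5.11, 5.12 and 3.81 FPKM in flow and 5.87, 5.75 and 4.41 FPKM in controls. The groups overlapped, and library 3 was the lowest of each (log2 fold change -0.16, SE 0.17). Between libraries with neighbouring title numbers the flow level of Egfr was 0.87, 0.89 and 0.86 times the control level. With these taken as pairs the SE of its log2 fold change was 0.11. In the other deposited table control 1 of Egfr stood at 14.8 FPKM, against 4.16 and 4.80 FPKM in controls 2 and 3. That column had the lowest depth of all, 0.69 megareads. Erbb2 had 8.12, 11.8 and 14.1 FPKM in flow and 11.6, 10.4 and 9.45 FPKM in controls. Flow library 1 was below and flow libraries 2 and 3 were above all controls, and the log2 fold change of 0.08 (SE 0.20) became -0.08 without flow library 3 and 0.28 without flow library 1. Erbb3, the neuregulin receptor with a weak kinase, had 0.218, 0.0596 and 0.0803 FPKM in flow and 0.125, 0.0475 and 0.126 FPKM in controls, about 2 to 14 reads. Erbb4 was listed at 0 throughout, and 3 reads on its longest transcript equal 0.0132 to 0.0440 FPKM. The summed receptor level was 16.1 ± 2.37 FPKM in flow and 15.9 ± 1.797 FPKM in controls (SD, n = 3 each). Receptor transcripts were thus nearly all Erbb2 and Egfr in both groups.

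Errfi1 was by far the most abundant of the 10. It encodes MIG6, a cytoplasmic inhibitor that binds the kinase domains of the ErbB receptors and is itself induced by EGFR signalling in many cells. Errfi1 (ENSMUSG00000028967, chromosome 4 at 150825732 to 150868892) had 293.7, 252.8 and 271.2 FPKM in flow libraries and 303.3, 249.2 and 327.2 FPKM in controls. The groups overlapped fully (log2 fold change -0.10, SE 0.13). A lower mean than that of Errfi1 was seen for 96.7% of the 11957 genes in flow and for 97.0% in controls. Its SD between cultures was 7.51% of the mean in flow, the smallest of the 7 genes that averaged 1 FPKM or more, and 13.6% in controls. With the GC trend removed the log2 fold change was -0.16 for Errfi1, -0.26 for Egfr and 0.28 for Erbb2.

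Of the 10 genes, 7 averaged at least 1 FPKM and entered the fit of all genes. That fit called 0 of these 7 at an adjusted p under 0.05 (limma), from which nothing is read because the set was chosen on this contrast. Over all 11957 genes it called 2 (0.0167%), 1 higher and 1 lower in flow (0.00836% each), and 1 with libraries of neighbouring title numbers taken as pairs. Without adjustment 1019 of the 11957 genes (8.52%) had p under 0.05. These p-values set the group difference against the spread between 3 cultures a group. The variance of each gene was drawn toward a trend over all genes. Variation beyond those cultures is not covered. The groups did not overlap in 2 of the 7, Ereg upward and Hbegf downward, beside 15.1% of all genes tested. In bulk RNA a change in the number of cells making a transcript and a change in RNA per cell cannot be told apart.

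**Figure D3:**
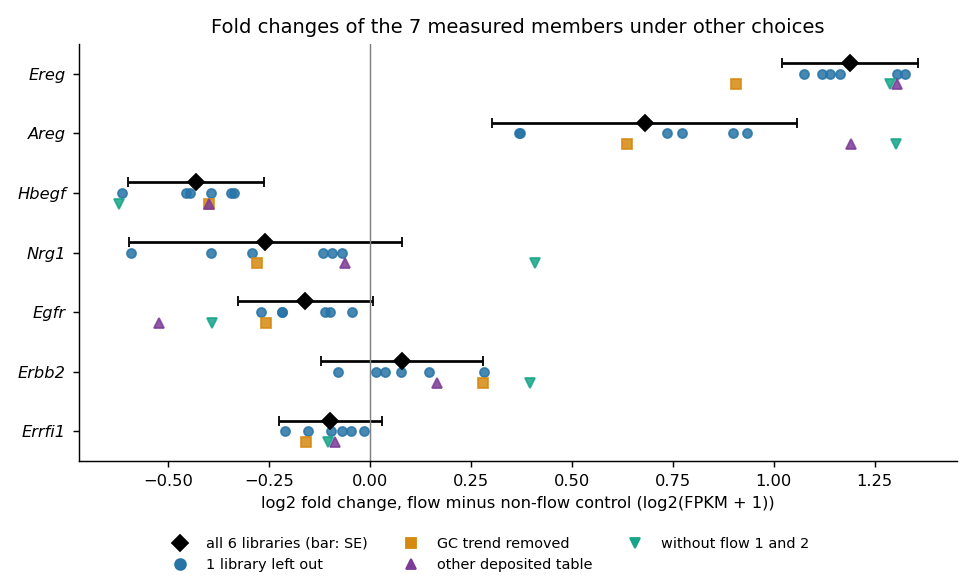
Log2 fold change, flow minus non-flow control, of the 7 genes that averaged at least 1 FPKM, with all 6 libraries (black, bar ± SE), with 1 library left out (blue), with the GC trend removed (orange), in the other deposited table (purple) and with flow library 3 alone (green). Ereg lies between 0.91 and 1.32 in every setting drawn, Hbegf stays below 0, and Nrg1 and Erbb2 fall on both sides of 0.

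The order of levels differed little between the groups. In flow it ran Errfi1, Ereg, Hbegf, Areg, Erbb2, Egfr, Nrg4, Nrg1, Btc, Egf, Erbb3 and Epgn, and in controls Errfi1, Ereg, Hbegf, Erbb2, Areg, Egfr, Nrg1, Nrg4, Btc, Egf, Erbb3 and Epgn. Neighbours whose ranges over libraries overlapped were Hbegf with Areg and Areg with Erbb2 in flow, and Erbb2 with Areg and Areg with Egfr in controls. The neuregulins Nrg1 and Nrg4 overlapped in both groups, as did Egf with Erbb3 and Erbb3 with Epgn. Errfi1, Ereg and Hbegf kept separate ranges in the controls. The gap between Ereg and Hbegf was wider in flow, where the lowest Ereg value was 76.7 FPKM and the highest Hbegf value 22.7 FPKM, than in controls, where these were 33.3 and 25.2 FPKM.

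Across the 6 libraries the level of Areg followed that of Ereg with a Pearson r of 0.76 on the log2(FPKM + 1) scale, and that of Hbegf ran against it with r of -0.84. Egfr had r of -0.62, Errfi1 -0.33, Nrg1 -0.17 and Erbb2 0.25. These are descriptions over 6 points that share the split into flow and control. By the same measure Areg was at rank 530 among all genes in likeness to Ereg. The 5 genes most like Ereg were Cdc42se2, an effector of the GTPase CDC42, Usp33, a ubiquitin protease, Snapc1, a subunit of the complex that starts transcription of small nuclear RNA genes, Nkrf, a repressor that acts on NF-kB sites, and Gpr137b, a lysosomal membrane protein. Their r ran from 0.98 to 0.99. Their own differences were smaller than that of Ereg, with log2 fold changes of 0.22 to 0.40. Cdc42se2, for example, had 27.8, 29.6 and 28.6 FPKM in flow and 20.6, 21.9 and 22.3 FPKM in controls.

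Ereg, Areg, Epgn and Btc lie in a row on chromosome 5, beside a cluster of CXC chemokine genes. Within 500 kb on either side of Ereg the table lists 18 genes, 15 of them protein-coding, of which 7 averaged at least 1 FPKM. All 7 had a positive log2 fold change, and in 4 of them (Ereg, Cxcl5, Cxcl1 and Mthfd2l) all flow values lay above all controls. Over all genes tested 48.3% had a positive log2 fold change and 7.12% had all flow values above all controls. The window was chosen after the values had been seen, and Ereg itself is among the 7. Values with the GC trend removed are not given for Mthfd2l and the chemokine genes. The part of that trend in these counts was not tested. Mthfd2l, a mitochondrial folate enzyme whose gene lies between the chemokines and Epgn, had 4.45, 4.52 and 4.47 FPKM in flow and 3.29, 2.80 and 3.43 FPKM in controls. Its log2 fold change was 0.40 with SE 0.13 (limma, adjusted p = 0.559). The chemokine genes had larger but more scattered differences. Cxcl5, Cxcl1 and Cxcl2, secreted attractants of neutrophils, had log2 fold changes of 2.78, 2.42 and 2.57 with SE 0.65, 0.80 and 0.96, and Cxcl3 had 1.56 with SE 0.60 (limma, adjusted p = 0.559 for each). Flow library 1 was the lowest of its group for each of these chemokine genes, as for Ereg, but their flow values spread more widely. Cxcl1 had 131, 748 and 1234 FPKM in flow libraries 1 to 3 and 73.6, 110 and 96.3 FPKM in controls, so flow library 1 stood far below the other pair, where Ereg varied from 76.7 to 99.5 FPKM in flow. On the far side of Areg, Btc and Parm1 averaged under 1 FPKM, and Parm1 reached at most 0.0340 FPKM.

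**Figure D4:**
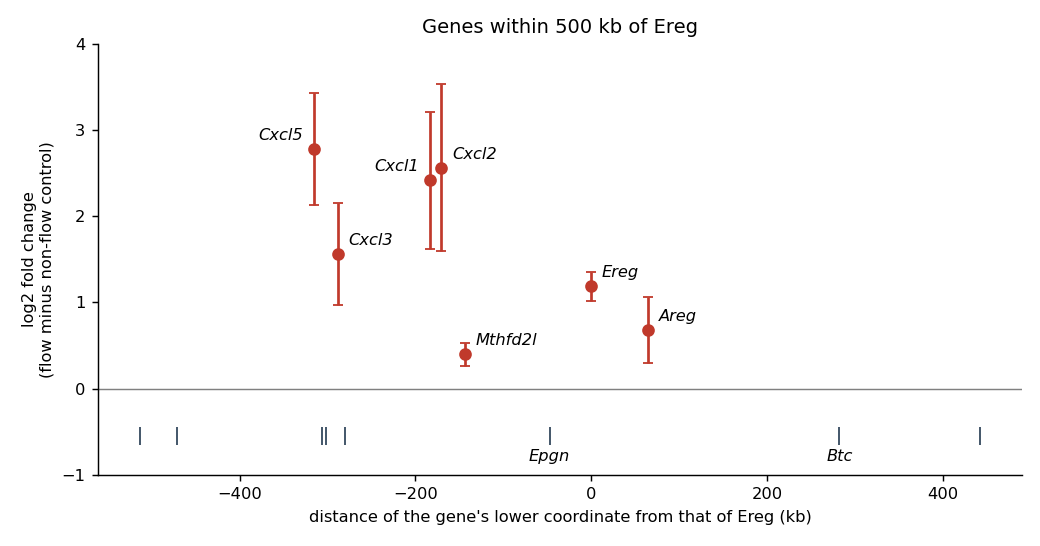
Log2 fold change (flow minus non-flow control, bar ± SE) of the 7 genes within 500 kb of Ereg that averaged at least 1 FPKM, against the distance in kb between their lower coordinates and that of Ereg. Grey ticks mark 8 protein-coding genes below 1 FPKM; the chemokine genes on the left reach 2.78 with wide bars, and Ereg at 1.19 has a narrow one.

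Promoter sequence from RefSeq (GRCm38.p6, the mm10 assembly) was on hand for 11 of the 16 genes of the family. Ereg, Hbegf, Nrg1, Nrg2 and Erbb3 had no entry and were not searched. The cAMP response element TGACGTCA, a site bound by CREB-type factors and long known from the Areg promoter, was sought in the 250 bases before each start, on both strands, which for this palindrome are the same. Among the 11 genes searched it was found before the start of Areg and before 1 of the 2 starts of Errfi1. Of 32851 promoters of the same length in the table, 1.55% hold it. Both are shown 5′ to 3′ on the + strand with the element in capitals, Areg at chr5:91139349-91139598 and Errfi1 at chr4:150854820-150855069.
Areg: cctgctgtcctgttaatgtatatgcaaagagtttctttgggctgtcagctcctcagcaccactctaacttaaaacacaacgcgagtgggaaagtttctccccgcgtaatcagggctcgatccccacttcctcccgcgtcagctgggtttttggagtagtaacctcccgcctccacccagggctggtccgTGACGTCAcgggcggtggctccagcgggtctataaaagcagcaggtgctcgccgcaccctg
Errfi1: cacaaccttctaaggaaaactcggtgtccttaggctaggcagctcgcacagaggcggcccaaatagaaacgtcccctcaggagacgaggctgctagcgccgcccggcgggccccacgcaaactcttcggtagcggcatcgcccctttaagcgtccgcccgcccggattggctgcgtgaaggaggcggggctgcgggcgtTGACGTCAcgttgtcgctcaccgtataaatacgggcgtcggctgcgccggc
The element begins 61 bases before the start of Areg and 51 bases before that of Errfi1. Beside these matching letters stand different values: the log2 fold change was 0.68 for Areg and -0.10 for Errfi1. The AP-1 site TGANTCA, sought on both strands and present in 6.75% of all promoters, was in none of the promoters of the 11 genes searched. The TEAD site GGAATG, present in 12.6% of all promoters counting both strands, was before the start of Erbb2 and before the other start of Errfi1. A match is a description of letters and not a bound site.

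The pathway around these genes showed no called difference. Of 94 genes in 6 lists (the other family genes, ligand release, brakes on the receptors, adaptors and kinases, transcripts induced by ERK, and receptor trafficking) 84 averaged at least 1 FPKM. limma called 0 of the 84 at an adjusted p under 0.05, beside 0.0167% of all genes. Without adjustment 10 of the 84 (11.9%) had p under 0.05, beside 8.52% of all genes. A positive log2 fold change was seen in 34 of the 84 (40.5%) and in 48.3% of all genes, with medians of -0.07 and -0.01. All flow values lay above all controls in 5 of the 84, beside 7.12% of all genes, and below them in 9, beside 8.0% of all genes. Without flow library 3 the smallest adjusted p of the 84 was 0.0695 (limma). In that fit 27 of the 84 had an unadjusted p under 0.05, beside 3152 of all 11957 genes.

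Ligand release had 10 measured genes, 5 above and 5 below 0. The sheddase Adam10, which frees betacellulin and EGF, had 40.8, 35.5 and 30.6 FPKM in flow and 31.3, 27.4 and 32.3 FPKM in controls (limma, adjusted p = 0.580), and its log2 fold change of 0.22 was 0.07 with the GC trend removed. Adam15, a metalloprotease of the same family and the most abundant of the list, had 66.2, 63.7 and 70.5 FPKM in flow, below the 81.0, 89.0 and 81.9 FPKM of controls (log2 fold change -0.33, SE 0.09; limma, adjusted p = 0.559). Its transcript has 58.8% GC, and with the GC trend removed the fold change was -0.11. Rhbdf1, which encodes a carrier of the sheddase ADAM17, had 23.5 ± 4.38 FPKM in flow and 28.9 ± 4.14 FPKM in controls (SD, n = 3 each), with overlapping groups. Its log2 fold change of -0.30 was -0.08 with the GC trend removed.

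Brakes on the receptors had 18 measured genes, 10 above 0, with a median log2 fold change of 0.05. Rasa1, which switches RAS off, had 50.7, 38.8 and 36.0 FPKM in flow, above the 33.4, 22.1 and 29.4 FPKM of controls (log2 fold change 0.55, SE 0.19; limma, adjusted p = 0.559). Ptpn2, a phosphatase that acts on EGFR, had 42.3, 52.7 and 39.7 FPKM in flow and 33.0, 35.3 and 38.3 FPKM in controls, again without overlap. Both transcripts have low GC content, 38.1% for Rasa1 and 41.3% for Ptpn2, and with the GC trend removed their fold changes were 0.24 and 0.10. Spry4, a feedback inhibitor induced by ERK, averaged 7.84 ± 1.94 FPKM in flow and 10.4 ± 1.03 FPKM in controls (SD, n = 3 each). Lrig1, a membrane protein that promotes loss of ErbB receptors and the most abundant brake listed, averaged 66.6 ± 9.99 FPKM in flow and 56.7 ± 5.86 FPKM in controls, with overlap, and its log2 fold change of 0.22 was 0.36 with the GC trend removed.

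Adaptors and kinases had 25 measured genes, 10 of them above 0, with a median of -0.10. Pik3r1, the regulatory subunit of PI3K, lay higher in every flow library than in every control, and Mapk3, which encodes ERK1, lay lower. Mapk3 had 56.8, 50.4 and 77.1 FPKM in flow against 84.1, 81.0 and 83.2 FPKM in controls. Pik3r1 had 14.6, 21.3 and 18.3 FPKM in flow against 14.5, 9.78 and 12.9 FPKM in controls. Neither was called (limma, adjusted p = 0.559 for each). GC content was 45.6% for Pik3r1 and 56.7% for Mapk3, and the log2 fold changes of 0.51 and -0.45 were 0.39 and -0.26 with the GC trend removed. Akt1, the most abundant of the list, averaged 160 ± 33.4 FPKM in flow and 180 ± 3.70 FPKM in controls (SD, n = 3 each). Its log2 fold change of -0.19 turned to 0.03 with the GC trend removed.

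Transcripts induced by ERK had 16 measured genes, of which 3 were above 0, with a median of -0.12. Library 3 stood apart in this list: in 12 of the 16 genes (75.0%) it was the highest of its group in both flow and controls, beside 15.8% of all genes. Egr1, an immediate early transcription factor named after its values were seen, had 7.19, 10.5 and 185 FPKM in flow and 10.7, 8.20 and 218 FPKM in controls. Fos, an AP-1 subunit named likewise, had 8.93 FPKM in flow library 3 and 13.7 FPKM in control 3, and at most 0.776 FPKM in the other libraries. Without flow library 3 and control 3, a choice made after seeing the data, 5 of the 16 were above 0 and the median was -0.18. Areg and Nrg1 were also highest in library 3 of each group, and the part of this in their values was not tested. Etv5, an ETS factor induced by growth factor signalling, had 27.0, 25.7 and 34.0 FPKM in flow and 34.2, 38.1 and 44.8 FPKM in controls. Its groups did not overlap, although flow library 3 and control 1 were close (log2 fold change -0.42, SE 0.15; limma, adjusted p = 0.559). With the GC trend removed its fold change was -0.38. Fosl1, an AP-1 subunit and the most abundant of the list, had 228, 315 and 410 FPKM in flow and 326, 357 and 425 FPKM in controls. Ccnd1, cyclin D1, averaged 215 ± 20.6 FPKM in flow and 238 ± 26.1 FPKM in controls, while Hmga2, a chromatin protein, averaged 204 ± 28.6 FPKM in flow and 168 ± 36.3 FPKM in controls (SD, n = 3 each). The groups overlapped for Fosl1, Ccnd1 and Hmga2, whose fold changes with the GC trend removed were -0.03, -0.06 and 0.13. Removing that trend also moved Dusp4, Egr1, Etv4, Phlda1 and Plaur from below to above 0, at 0.13, 0.02, 0.0004, 0.13 and 0.04. No gene of the list moved the other way. Dusp4, Etv4, Phlda1 and Plaur are named after their values were seen. The count of 3 above 0 therefore holds only for the values as deposited.

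Receptor trafficking had 14 measured genes, 5 above 0, with a median of -0.13. Ap2a1, a subunit of the clathrin adaptor that takes EGFR into the cell, had 59.7, 57.4 and 64.1 FPKM in flow, below the 74.1, 68.5 and 70.5 FPKM of controls (log2 fold change -0.23, SE 0.09; limma, adjusted p = 0.559). With the GC trend removed it was -0.02. Rab5a, the GTPase of early endosomes, had 35.5, 37.4 and 29.4 FPKM in flow and 28.2, 29.2 and 26.8 FPKM in controls, without overlap, and its log2 fold change of 0.27 was 0.13 with the GC trend removed. Stam, part of the complex that sorts receptors for degradation, averaged 34.7 ± 4.79 FPKM in flow and 46.6 ± 10.5 FPKM in controls (SD, n = 3 each), with a log2 fold change of -0.40 that was -0.61 with the GC trend removed. Cav1, the coat protein of caveolae and the most abundant of the list, had 659, 462 and 592 FPKM in flow and 981, 569 and 753 FPKM in controls, with overlap (limma, adjusted p = 0.566).

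**Figure D5:**
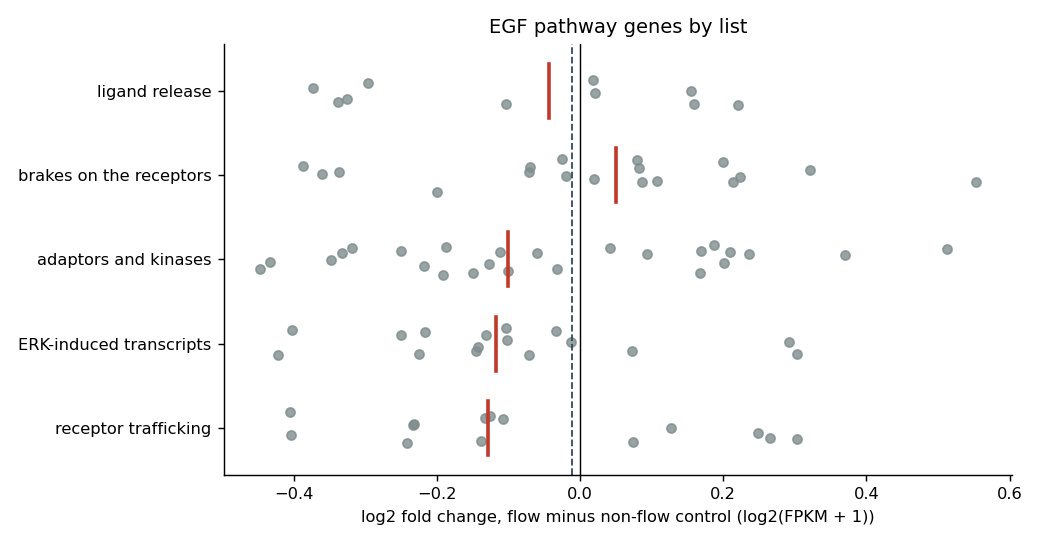
Log2 fold change (flow minus non-flow control) of each measured gene in 5 pathway lists (grey points, spread vertically for sight only), with the list median in red and the median of all 11957 genes (-0.01) as a dashed line. All points lie between -0.45 and 0.55, and the list medians between -0.13 and 0.05.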

How the data were processed

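RNA of 6 MLO-Y4 cultures (3 flow, 3 non-flow control) was sequenced in 50-cycle reads. Per the submitters' processing notes, CASAVA 1.8.2, TopHat2 2.0.9 and Cufflinks 2.2.1 were used with build mm10; whether counting used strand is not given in the sources used here. The authors deposited FPKM per gene in 2 tables, and the files used here hold no counts. The table whose columns name the library titles (39174 genes) was used, and the other (38991 genes) served as an alternative; 2 of its flow columns matched no title and were used as flow only. Depth was estimated from the steps between low FPKM values of genes with 1 transcript. Genes that averaged 1 FPKM or more were compared by limma 3.58.1 in R 4.3.3 on log2(FPKM + 1), with a trended variance prior and Benjamini-Hochberg adjustment over 11957 genes, without pairing, and the procedure was tested on simulated data. Adding 1 FPKM understates fold changes of low genes. GC content came from GENCODE M21 transcripts. The GC trend was removed in each library by a lowess curve (span 0.3) over protein-coding genes. Members, lists and windows were chosen with earlier results of these data known. Beside the family, the text names from each list the 3 tested genes with the smallest p, any called gene and the most abundant gene, and the 5 genes most like Ereg. A gene that this rule names is not reported here. An exact permutation test of 3 against 3 cannot go below a two-sided p of 0.1 and was not used. Read numbers are approximate, refer to the longest transcript and cover counting error only.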

Additional observations from a re-analysis of the deposited data

How the results depend on the processing

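limma called 2 genes with all 6 libraries, 4 with a pseudocount of 0.1 FPKM and 4 without the filter, where 20517 genes were tested. With the GC trend removed it called 0, and 673 of 10460 genes had an unadjusted p under 0.05. That fit held protein-coding genes only, so removing the trend and narrowing the gene set cannot be told apart in this count. With 1 library left out limma called 3 (without flow library 1), 12 (flow library 2), 14 (flow library 3), 10 (control 1), 12 (control 2) and 11 (control 3), a range of 3 to 14. With flow library 3 alone against the controls, an alternative chosen after seeing the data in which that library is assumed to vary like the controls, 76 were called. None of the 84 pathway genes was called in any alternative with more than 1 library in each group. Unadjusted p under 0.05 was reached by 1 to 27 of them in these alternatives. The 27 came without flow library 3, where 3152 of all 11957 genes reached it. The log2 fold change of Ereg was positive in all 13 alternatives, from 1.07 to 1.32 with 1 library left out, and 0.91 with the GC trend removed. No alternative turned the sign of Areg, Hbegf, Egfr or Errfi1, while Nrg1 and Erbb2 each turned in 1. No label gives the day of a culture. With neighbouring title numbers taken as pairs (replicate block), 1 gene was called and the SE of the Ereg fold change was 0.10. The deviations of such libraries correlated at 0.04, 0.02 and 0.06 over all tested genes and at 0.29, 0.38 and 0.34 over protein-coding genes, and over all tested genes each flow library correlated best with the control of its own pair. Whether they are pairs is therefore not settled, and unpaired values are the main ones. Depth limits Egf, Epgn, Btc and Erbb3, which rest on 44 reads or fewer per library.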
